A study of Oryza sativa with 10 samples.

Results

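The calcium sensors of rice and the kinases that carry a sensor domain were followed across roots of 4 transgenic groups and their control. They were found by their deposited descriptions: a locus belonged when one of its transcripts was described with an EF-hand, calmodulin, calcineurin B or a calcium-dependent protein kinase, and NADPH oxidases were left out by the rule, which removed 0 loci. This gave 235 of 37869 loci, of which 203 were above 0 in all 10 libraries and could be tested. A further 13 loci were above 0 in some libraries, and 19 were at 0 in all.

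Root RNA of rice (Oryza sativa japonica, cultivar Illmi) was measured by RNA-Seq to find genes that answer to NAC transcription factors linked to drought tolerance. The OsNAC5, OsNAC6, OsNAC9 and OsNAC10 groups each carried the named gene fused to a 6MYC epitope tag under RCc3, a promoter active in roots, and the NT group was non-transgenic. The sample titles place the tag before OsNAC5 and OsNAC9 and after OsNAC6 and OsNAC10, so the side of the tag and the gene cannot be told apart. Each group had 2 libraries from plants labelled as 20 days old, and plants of all groups had been covered with water for some days in the greenhouse before harvest. The lines were picked for high tagged protein, and the number of lines behind the 2 libraries of a group is not stated, so a contrast with NT compares plant lines. All 4 contrasts with NT also share the same 2 NT libraries.

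Calcium ions act as a second messenger in plant cells, where stimuli such as drought, salt, touch and microbes raise cytosolic calcium for a short time. The signal is read by proteins with EF-hands, helix-loop-helix motifs that bind the ion: calmodulins and calmodulin-like proteins, which bind and alter other proteins, calcineurin B-like proteins (CBLs), which recruit the CBL-interacting kinases (CIPKs), and calcium-dependent protein kinases (CDPKs), which hold sensor and kinase in one chain. Calmodulin in turn acts through calmodulin-binding proteins, among them IQ-motif proteins, ion channels and transcription regulators.

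By their descriptions, 28 of the 235 loci were calcium-dependent kinases, 14 were calcineurin B-like proteins, 23 were calmodulins or calmodulin-like proteins, 90 were calmodulin-binding proteins and 80 were other EF-hand proteins. Values are FPKM, in which the fragments of a transcript are scaled by its length and by the size of the library, summed over the transcripts of a locus. Each library's FPKM summed to between 730218 and 789304, and the deposited values do not carry the number of reads behind them. Each overexpressed OsNAC gene was higher in both of its own libraries than in any other library, by unequal margins. OsNAC5 had 146 and 154 FPKM (highest other library 46.6) and OsNAC9 413 and 558 (highest other 50.1). The margins were narrow for OsNAC6, with 129 and 123 FPKM (highest other 96.5), and OsNAC10, with 35.1 and 34.7 (highest other 27.4). The 4 root markers summed to 2792 to 4029 FPKM in the line libraries and to 3305 and 3317 FPKM in NT, whereas 20 shoot markers, 4 of them at 0 in every library, summed to 13.9 to 19.9 FPKM in the line libraries and to 18.2 and 15.7 FPKM in NT. The 17 markers of dividing cells summed to 2085 to 3725 FPKM in the line libraries and to 1752 and 1776 FPKM in NT, so every line library was above both NT libraries. All the called markers of dividing cells, 8 in OsNAC6, 5 in OsNAC9 and 1 in OsNAC10, were among 11 histone H4 loci, which made up most of the sum. Of the shoot markers, Os01g0600900 was called lower in OsNAC6 (log2 change -0.83) and OsNAC10 (-0.79), and Os12g0291100 was called higher in OsNAC9 (1.01). Among the dividing-cell markers, the 4 cyclins summed to 36.7 to 53.0 FPKM in the line libraries and to 40.8 and 41.7 FPKM in NT, with 1 of them below NT in all 8 line libraries, and the remaining 2 are acetyltransferase subunits. The part of these markers in the results was not tested. The OsNAC6 libraries were the least alike: the median difference between replicates over 99 sensor loci of at least 10 FPKM was 0.23 (log2) in OsNAC6, 0.083 to 0.128 in the other lines and 0.0393 in NT.

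Lower calls outnumbered higher calls in every line. A locus was called when limma gave a Benjamini-Hochberg adjusted p under 0.05, over all 29915 loci tested, together with a change of at least 1.5 fold on the log2(FPKM + 1) scale, which understates changes of low loci. In OsNAC6 roots 38 of the 203 tested loci were lower than in NT (18.7%, against 7.07% of all loci tested), and 12 were higher (5.91%, against 5.32%). In OsNAC9 roots 27 were lower (13.3%, against 4.91%) and 7 were higher (3.45%, against 4.43%). In OsNAC10 roots 43 were lower (21.2%, against 9.86%) and 8 were higher (3.94%, against 4.61%). In OsNAC5 roots 6 were lower (2.96%, against 2.78%) and 1 was higher (0.493%, against 1.78%), so the lower share was near that of all loci.

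With each library centred on its median, the OsNAC10 calls were 15 higher and 40 lower, which moved the higher share to 27.3% of the calls, against 15.7%. With quantile normalization the OsNAC5 calls were 2 higher and 6 lower, 25% higher against 14.3%. In bulk root RNA, fewer cells of a type and less RNA per cell cannot be told apart.

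The lower share was also seen among well-detected loci. Of the 172 sensor loci with a mean of at least 1 FPKM, OsNAC6 had 34 lower (19.8%, against 7.93% of all such loci), OsNAC9 26 (15.1%, against 5.41%), OsNAC10 39 (22.7%, against 11.2%) and OsNAC5 6 (3.49%, against 2.95%). The higher calls among them were 9 for OsNAC6 (5.23%, against 6.28%), 7 for OsNAC9 (4.07%, against 5.13%), 8 for OsNAC10 (4.65%, against 5.56%) and 1 for OsNAC5 (0.581%, against 2.06%). Over the 203 tested loci OsNAC5 had a median log2 change of -0.05, OsNAC6 of -0.16, OsNAC9 of -0.15 and OsNAC10 of -0.07, where the medians over all loci tested lay between 0.01 and 0.02. In 61 of the 203 (30%) all 8 line libraries were below both NT libraries, against 14.6% of all loci tested. All 8 were above both NT libraries in 25 (12.3%), against 14.5%.

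**Figure D1:**
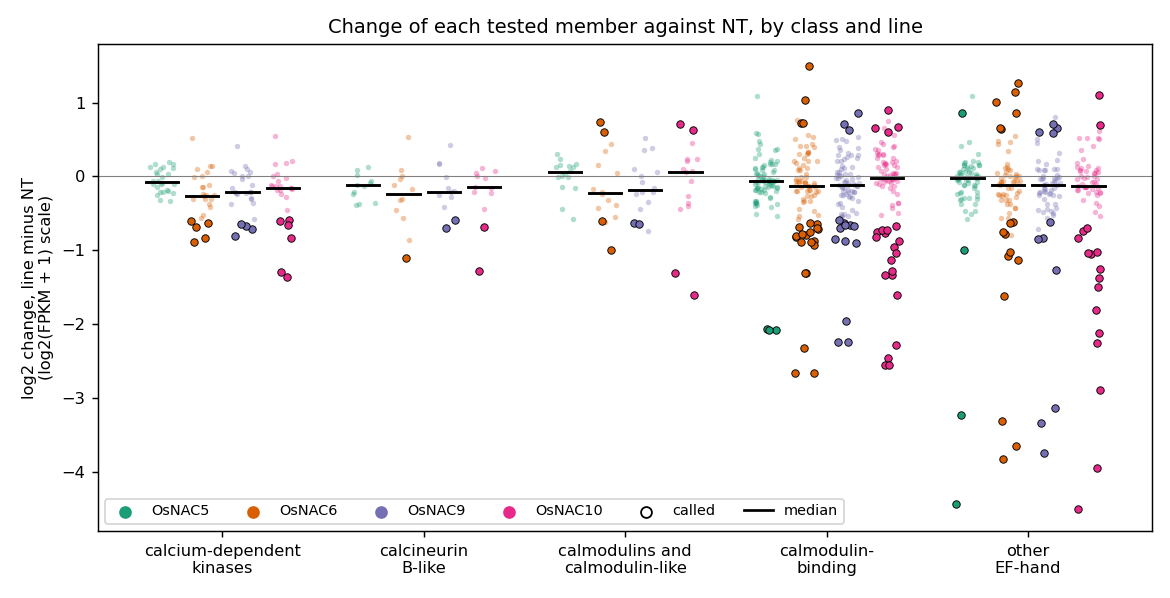
Each point is a tested locus, placed by class and line along the horizontal axis and by its log2(FPKM + 1) change, line minus NT, on the vertical axis; outlined points were called and black bars are class medians. Lower calls reach -4.50 among the EF-hand loci, while no calcium-dependent kinase was called higher in any line.

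Of the calcium-dependent kinases, which phosphorylate ion channels, oxidases and transcription factors once calcium binds, 26 could be tested. None was called higher in any line, and 6 loci carried all the lower calls: OsNAC10 had 6 of them lower (23.1% of the 26, against 9.86% of all loci tested), OsNAC6 5 (19.2%, against 7.07%) and OsNAC9 4 (15.4%, against 4.91%). Higher calls made up 1.78% to 5.32% of all loci tested, so 0 of 26 was near that share. With median centring 3 kinases were lower in OsNAC10. For OsNAC5 the count was 0 by limma, with 5 kinases lower and 0 higher at an unadjusted p under 0.05. The share of all loci at that unadjusted p was not computed, so no decline in OsNAC5 is read from this count. Over the 26 kinases OsNAC5 had a median log2 change of -0.07, OsNAC6 of -0.26, OsNAC9 of -0.21 and OsNAC10 of -0.15. The summed level of the class was 569 to 677 FPKM in the 8 line libraries and 699 and 689 FPKM in NT, with no overlap. In 13 of the 26, all 8 line libraries lay below both NT libraries, against 14.6% of all loci tested. In 1 they all lay above, against 14.5%.

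With its 3 transcripts summed, of which 1 is described as a kinase, Os04g0584600 was the second most abundant locus of the class. This sum was 96.0 and 91.9 FPKM in OsNAC5, 70.4 and 71.0 in OsNAC6, 68.3 and 67.0 in OsNAC9, 71.5 and 69.8 in OsNAC10, and 107 and 109 in NT. In the sum the OsNAC6, OsNAC9 and OsNAC10 libraries formed one level, OsNAC5 stood between it and NT, and no group overlapped NT. Its log2 change was -0.60 ± 0.06 in OsNAC6 (SE, limma adjusted p = 0.000407), -0.66 ± 0.06 in OsNAC9 (adjusted p = 0.000256) and -0.60 ± 0.06 in OsNAC10 (adjusted p = 0.00034), against -0.20 in OsNAC5 (adjusted p = 0.114, limma). With median centring the changes in OsNAC6 (-0.56) and OsNAC10 (-0.52) were under the fold required. When only its transcript described as a kinase was summed, they were -1.68 and -1.45.

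With all transcripts of a locus summed, Os02g0126400 showed the largest kinase change. It had 39.8 and 37.9 FPKM in OsNAC5, 21.2 and 22.8 in OsNAC6, 24.1 and 22.5 in OsNAC9, 16.2 and 15.1 in OsNAC10, and 42.4 and 40.8 in NT. OsNAC5 was close to NT, and OsNAC10 was the lowest group. The log2 change was -1.36 ± 0.08 in OsNAC10 (SE, limma adjusted p = 1.41e-05), -0.89 in OsNAC6 and -0.81 in OsNAC9 (both called), and -0.10 in OsNAC5 (adjusted p = 0.564). OsNAC10 was also lower than OsNAC5 (log2 difference -1.26, limma adjusted p = 6.3e-05).

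Os07g0568600 was at 3.88 and 2.94 FPKM in OsNAC10, 6.18 and 6.29 in OsNAC9, 5.93 and 5.50 in OsNAC6, 7.49 and 7.77 in OsNAC5, and 9.65 and 9.88 in NT. The log2 change in OsNAC10 was -1.30 ± 0.12 (SE, limma adjusted p = 0.000172), and OsNAC10 was called lower than each of the other 3 lines. Os03g0788500, described as similar to calcium-dependent protein kinase 2, and Os10g0539600, described as similar to kinase 3, changed by nearly equal amounts in 3 lines: -0.84, -0.71 and -0.83 for Os03g0788500 and -0.64, -0.64 and -0.66 for Os10g0539600 in OsNAC6, OsNAC9 and OsNAC10. Os03g0128700, described as isoform 11, was called in OsNAC10 (-0.59, limma adjusted p = 0.00108), and its change in OsNAC6 was -0.53.

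The most abundant kinase went the other way without reaching the call. Os06g0127300 had 114 and 109 FPKM in OsNAC5, 158 and 123 in OsNAC6, 121 and 137 in OsNAC9, 131 and 154 in OsNAC10, and 98.9 and 94.9 in NT. All 8 line libraries were above NT, and the log2 change was 0.54 ± 0.13 in OsNAC10 (SE, limma adjusted p = 0.0167) and 0.52 in OsNAC6 (adjusted p = 0.0219), both under 1.5 fold.

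**Figure D2:**
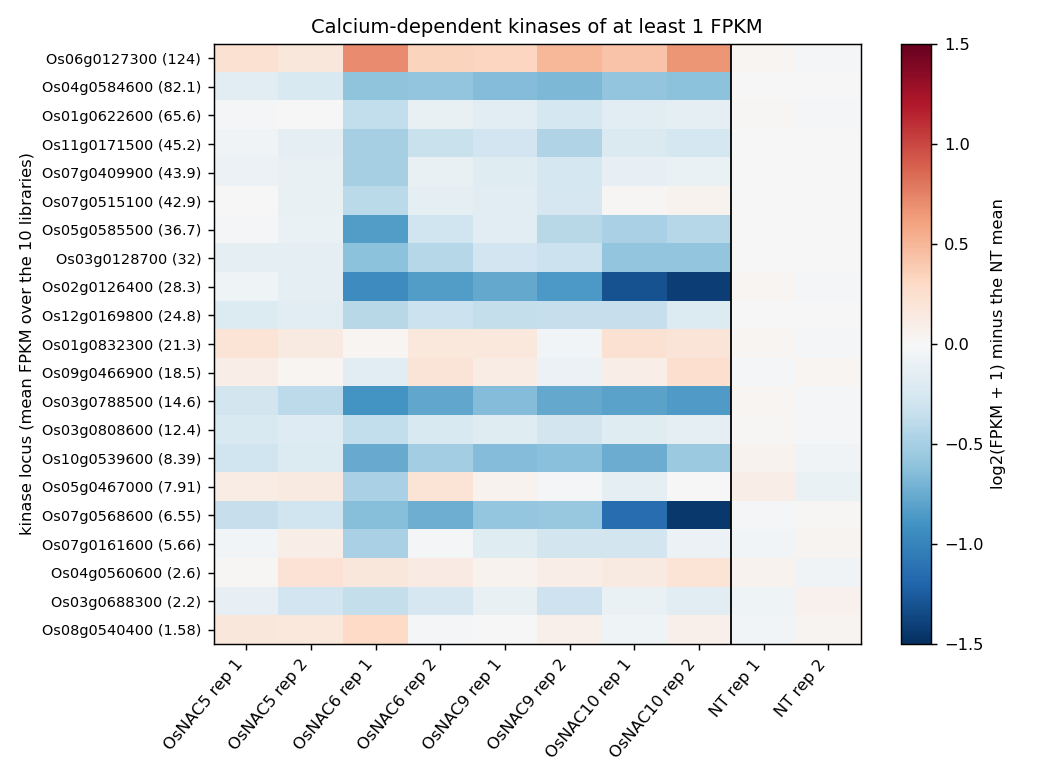
Rows are the calcium-dependent kinases with a mean of at least 1 FPKM, ordered by that mean (in brackets), columns are the 10 libraries, and color is log2(FPKM + 1) minus the NT mean, blue for lower. Os02g0126400, Os03g0788500, Os07g0568600 and Os10g0539600 are blue in all line libraries, whereas Os06g0127300 at the top is red in all 8.

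Calcineurin B-like proteins bind calcium and bring CIPKs to membranes, where the pair controls ion transport. Of 12 tested, 0 were called higher in any line, near the 1.78% to 5.32% of all loci tested. Lower calls were 0 in OsNAC5, 1 in OsNAC6 (8.33%, against 7.07% of all loci tested), 2 in OsNAC9 (16.7%, against 4.91%) and 2 in OsNAC10 (16.7%, against 9.86%). At an unadjusted p under 0.05 in limma, 2, 5, 3 and 3 were lower in OsNAC5, OsNAC6, OsNAC9 and OsNAC10, with 1 at most higher in a line. These counts have no share of all loci beside them, since it was not computed at that threshold. The class summed to 134 to 173 FPKM in the line libraries and to 180 and 182 FPKM in NT. Os02g0291400, described as similar to CBL 8, had 8.30 and 9.10 FPKM in OsNAC5, 3.82 and 5.94 in OsNAC6, 6.99 and 7.62 in OsNAC9, 7.25 and 6.31 in OsNAC10, and 10.8 and 12.2 in NT. All line libraries were below NT, and the locus was called in OsNAC6 (-1.11 ± 0.17, log2, SE, limma adjusted p = 0.00255), OsNAC9 (-0.59) and OsNAC10 (-0.68). Os02g0291000 was called lower in OsNAC9 (-0.70), and Os03g0626800 in OsNAC10 (-1.28) but with replicates that lay far apart in OsNAC5 (5.91 and 12.3 FPKM) and OsNAC6 (2.24 and 6.61 FPKM).

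The abundant CBLs stayed near NT. Os10g0564800, similar to CBL 1, had 32.6 to 49.2 FPKM in the line libraries and 45.2 and 47.0 FPKM in NT, and Os12g0162400, similar to CBL 3, had 29.4 to 39.1 FPKM in the line libraries and 34.5 and 33.8 FPKM in NT. The CBL-interacting kinases are described without the words of the rule and are not counted among the 235. Of 26 such loci 20 were tested. OsNAC5 had 1 called lower (5%, against 2.78% of all loci tested), OsNAC6 3 (15%, against 7.07%), OsNAC9 4 (20%, against 4.91%) and OsNAC10 5 (25%, against 9.86%), and 1 was called higher, in OsNAC9.

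Calmodulins and calmodulin-like proteins included the most abundant loci of the whole set, and these changed little. Os03g0319300, similar to tobacco calmodulins, had 466 and 455 FPKM in OsNAC5, 512 and 363 in OsNAC6, 398 and 407 in OsNAC9, 466 and 511 in OsNAC10, and 511 and 508 in NT. Os01g0279300, similar to calmodulin 1, had 393 to 468 FPKM in the line libraries and 408 and 413 FPKM in NT. Neither was called in any line, and the OsNAC6 replicates straddled the NT values in both.

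A second locus described as similar to calmodulin 1, Os08g0117400, had 120 and 123 FPKM in OsNAC5, 131 and 143 in OsNAC6, 155 and 130 in OsNAC9, 163 and 193 in OsNAC10, and 108 in each NT library. All line libraries were above NT, and the locus was called in OsNAC10 (0.71 ± 0.11, log2, SE, limma adjusted p = 0.00235), where quantile normalization brought the change to 0.58, under the fold required. Calmodulin-like Os01g0955100, called in OsNAC10 and in no other line, had 49.1 and 63.8 FPKM in OsNAC5, 46.3 and 27.7 in OsNAC6, 37.0 and 43.8 in OsNAC9, 13.8 and 14.6 in OsNAC10, and 42.9 and 47.2 in NT. The log2 change in OsNAC10 was -1.60 ± 0.22 (SE, limma adjusted p = 0.00133), and its differences from the other lines were -1.28 to -1.91 (limma, all called).

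Os09g0412300, also calmodulin-like, had 35.4 and 39.1 FPKM in OsNAC5, 30.1 and 26.5 in OsNAC6, 23.8 in both OsNAC9 libraries, 13.6 and 15.6 in OsNAC10, and 36.3 and 38.3 in NT. It was lower in OsNAC10 (-1.30, limma adjusted p = 6.24e-05) and OsNAC9 (-0.63), and level with NT in OsNAC5 (0.00). Over the class, 2 of 16 tested loci (12.5%) were called higher in each of OsNAC6 and OsNAC10, against 5.32% and 4.61% of all loci tested. In each of OsNAC6, OsNAC9 and OsNAC10, 2 (12.5%) were called lower, against 7.07%, 4.91% and 9.86%.

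The deepest losses were in other EF-hand loci that lie close together on chromosome 9. Between Os09g0482780 and Os09g0483600 the table lists 14 loci in the order of their RAP numbers, and 5 of these are EF-hand loci. Os09g0483500 had 2.38 and 2.70 FPKM in OsNAC5, 4.30 and 4.46 in OsNAC6, 4.09 and 5.34 in OsNAC9, 4.33 and 3.55 in OsNAC10, and 73.3 and 76.7 in NT. No line library came near NT, and the log2 change was -4.42 ± 0.13 in OsNAC5 (SE, limma adjusted p = 3.93e-07) and -3.74 to -3.95 in the other lines.

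Os09g0483100 had 0.347 and 0.454 FPKM in OsNAC5, 0.439 and 0.217 in OsNAC6, 0.364 and 0.617 in OsNAC9, 0.801 and 0.732 in OsNAC10, and 12.7 and 11.5 in NT. It was lower in all 4 lines, with log2 changes of -2.89 to -3.30 (limma, SE 0.12), and a difference among the lines did not pass the F test (limma adjusted p = 0.132). Os09g0483300 had 0.214 and 0 FPKM in OsNAC5, 0.678 and 0.351 in OsNAC6, 0.112 and 0.343 in OsNAC9, 0.0435 and 0.0520 in OsNAC10, and 3.02 and 3.45 in NT, and was not tested because one library is listed at 0. Os09g0482840 was near the detection limit, with 0.0524 to 0.435 FPKM in the line libraries and 0.579 and 0.493 FPKM in NT, and was called in no line.

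Os09g0482800, at the other end of the stretch, was graded. It had 18.7 and 21.1 FPKM in OsNAC5, 2.04 and 2.57 in OsNAC6, 2.87 and 3.38 in OsNAC9, 0.874 and 0.783 in OsNAC10, and 39.2 and 41.6 in NT. No groups overlapped, but OsNAC9 and OsNAC6 lay close (log2 difference 0.32, limma adjusted p = 0.256). The log2 change was -0.99 ± 0.12 in OsNAC5 (SE, limma adjusted p = 0.00161), and OsNAC6 was at -3.65, OsNAC9 at -3.33 and OsNAC10 at -4.50. The lines differed (F test, limma adjusted p = 4.66e-06).

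The neighbours that are not EF-hand loci varied. Os09g0482780, the first of the 14, had 76.8 to 114 FPKM in the line libraries and 80.9 and 79.0 FPKM in NT. Os09g0482900 had 1.19 to 2.08 FPKM in the line libraries and 2.51 and 2.18 FPKM in NT, and was called in no line. Os09g0483150 had 0 to 1.20 FPKM in the line libraries and 1.92 and 1.22 FPKM in NT, and was left out of the main fit. Os09g0483400, the neighbour of Os09g0483500, had 19.1 to 40.6 FPKM in the line libraries and 33.8 and 31.0 FPKM in NT, and was called lower in OsNAC10 only (-0.65), while Os09g0483600 had 3.50 to 5.85 FPKM in the line libraries and 3.97 and 4.37 FPKM in NT.

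**Figure D3:**
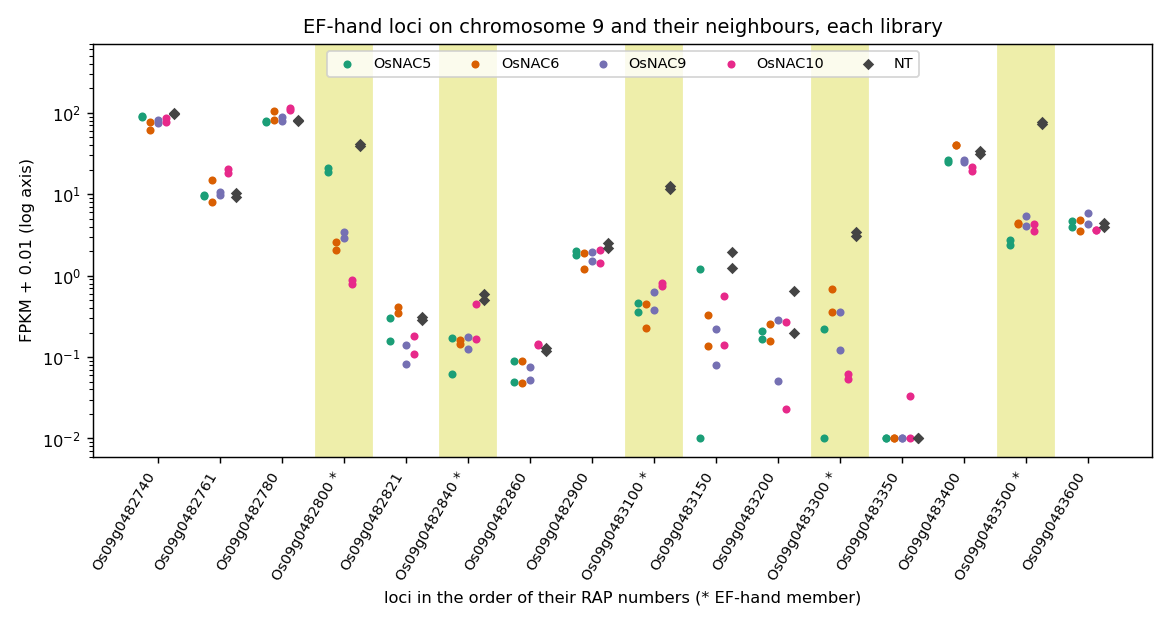
FPKM + 0.01 on a log axis in each library, for the loci around the chromosome 9 stretch in the order of their RAP numbers; the shaded columns marked * are the 5 EF-hand loci and diamonds are NT. In Os09g0482800, Os09g0482840, Os09g0483100, Os09g0483300 and Os09g0483500 all line libraries lie below NT. They do so by narrow margins in the neighbours Os09g0482740, Os09g0482900 and Os09g0483150 too, whereas Os09g0482780 and Os09g0483600 overlap NT.

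Outside chromosome 9, 3 loci described as similar to calmodulin binding protein were lower in all 4 lines. Os02g0305950 had 1.51 and 2.30 FPKM in OsNAC5, 1.91 and 0.969 in OsNAC6, 1.95 and 2.26 in OsNAC9, 1.07 and 1.97 in OsNAC10, and 10.7 and 11.3 in NT, a log2 change of -1.95 to -2.33 (limma, SE 0.23). Os08g0534300 and Os08g0534950 carry identical values in all 10 libraries and count as 1 signal: 2.38 and 2.90 FPKM in OsNAC5, 1.75 and 1.13 in OsNAC6, 1.90 and 2.63 in OsNAC9, 1.35 and 1.92 in OsNAC10, and 13.7 and 14.9 in NT. This signal changed by -2.07 to -2.66 (log2, limma, SE 0.18), while Os08g0534350, listed between them, had 11.0 to 13.1 FPKM in the line libraries and 12.2 and 12.1 FPKM in NT.

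By these criteria the only sensor locus called higher in all 4 lines was an EF-hand locus. Os07g0619200 had 48.2 and 47.7 FPKM in OsNAC5, 55.5 and 61.6 in OsNAC6, 42.3 and 43.4 in OsNAC9, 39.2 and 46.0 in OsNAC10, and 25.9 in each NT library. The log2 change was 1.14 ± 0.09 in OsNAC6 (SE, limma adjusted p = 8.34e-05), and OsNAC5 was at 0.86, OsNAC9 at 0.70 and OsNAC10 at 0.69. Without OsNAC10 replicate 2 the change in OsNAC10 was 0.58, under the fold required.

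A second stretch on chromosome 9 ran higher. The abundant EF-hand locus Os09g0458900 had 348 and 414 FPKM in OsNAC5, 528 and 386 in OsNAC6, 393 and 470 in OsNAC9, 359 and 400 in OsNAC10, and 284 and 287 in NT. All line libraries were above NT, and it was called in OsNAC6 (0.66 ± 0.16, SE, limma adjusted p = 0.0196) and OsNAC9 (0.59, limma adjusted p = 0.038), calls that were lost when either NT library was left out and with quantile normalization. The OsNAC6 call was also lost without OsNAC6 replicate 1 and with only OsNAC6 and NT in the fit, and the OsNAC9 call without either OsNAC9 or either OsNAC10 library, without the filter and with the replicate block. The neighbouring EF-hand loci Os09g0458700 (0.86 in OsNAC6 and 0.59 in OsNAC9) and Os09g0458800 (1.27 in OsNAC6) were also called higher, and the Os09g0458800 call too was lost without either NT library. The rise was not confined to EF-hand loci. Beside them Os09g0458500 (0.59, limma adjusted p = 0.0178) and Os09g0458600 (0.67, limma adjusted p = 0.00116), both low, met the call in OsNAC6. Os09g0458400 and Os09g0459200 met it in no line.

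Several EF-hand loci were lowest in OsNAC10. Os01g0783700, similar to the calcium-binding protein CCD1, had 15.3 and 14.2 FPKM in OsNAC5, 9.81 and 7.59 in OsNAC6, 10.3 and 10.5 in OsNAC9, 3.33 and 3.25 in OsNAC10, and 19.0 and 19.8 in NT. The change was -2.25 ± 0.12 in OsNAC10 (log2, SE, limma adjusted p = 8.05e-06), -1.08 in OsNAC6 and -0.84 in OsNAC9, and the differences of OsNAC10 from the other lines were -1.17 to -1.88 (all called). The other CCD1-like locus, Os06g0683400, had 76.3 and 92.3 FPKM in OsNAC5, 46.2 and 40.8 in OsNAC6, 41.1 and 41.8 in OsNAC9, 30.4 and 31.8 in OsNAC10, and 75.8 and 74.5 in NT. OsNAC10 was again the lowest group and OsNAC5 was above NT, with changes of -1.25 in OsNAC10 (limma adjusted p = 8.87e-05) and 0.16 in OsNAC5 (adjusted p = 0.441).

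Os11g0600500 had 5.50 and 4.86 FPKM in OsNAC5, 1.68 and 2.05 in OsNAC6, 4.58 and 4.87 in OsNAC9, 1.03 in both OsNAC10 libraries, and 7.56 and 8.06 in NT. OsNAC9 and OsNAC5 lay at one level (log2 difference -0.11, limma adjusted p = 0.7), and OsNAC6 (-1.62 against NT) and OsNAC10 (-2.11 against NT) were below it. The tag follows the gene in OsNAC6 and OsNAC10 and precedes it in OsNAC5 and OsNAC9, and the tag and the gene cannot be told apart here. Os03g0812400 was called in OsNAC10 alone (-1.49, limma adjusted p = 0.00458), with 2.77 and 3.47 FPKM in OsNAC10 and 10.2 and 10.9 FPKM in NT. Os11g0141400 and Os12g0138050, EF-hand loci of the duplicated ends of chromosomes 11 and 12, were called lower in OsNAC10 (-0.83 and -1.03), but how reads of near-identical copies were shared between them is uncertain.

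**Figure D4:**
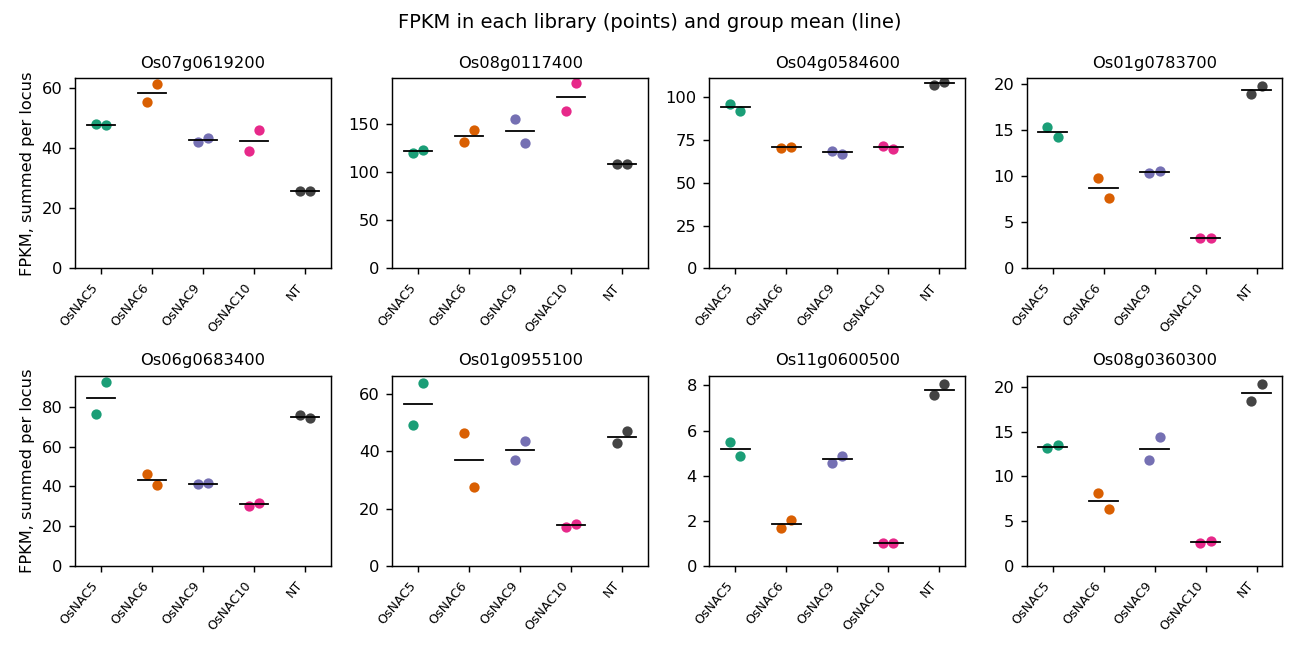
FPKM of 8 loci in each library (points) with group means (lines), lines to the left and NT at the right of each panel, each vertical axis starting at 0. Os07g0619200 and Os08g0117400 lie above NT in all line libraries, Os04g0584600 lies below, and OsNAC10 is the lowest group for Os01g0783700, Os06g0683400, Os01g0955100, Os11g0600500 and Os08g0360300.

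The calmodulin-binding proteins, 83 of them tested, are given by the kind of domain described, and differences between these kinds were not tested. Of 14 loci, 12 are described as calmodulin binding protein-like and 2 as similar to calmodulin-binding protein 60-B, a family that in Arabidopsis includes transcription regulators of immunity. All were tested, and OsNAC6 had 6 called lower (42.9%, against 7.07% of all loci tested), OsNAC9 1 (7.14%, against 4.91%) and OsNAC10 7 (50%, against 9.86%), with 0 higher. For OsNAC5 0 were called by limma, with 5 lower and 0 higher at an unadjusted p under 0.05, where the share of all loci was not computed. OsNAC10 had a median log2 change of -0.58 over the family, OsNAC6 of -0.46, OsNAC9 of -0.18 and OsNAC5 of -0.14. The families were singled out after their values were seen. Of the 5 tested loci described with a plant calmodulin-binding domain, OsNAC6 had 2 lower (40%, against 7.07% of all loci tested). OsNAC9 had 3 lower (60%, against 4.91%) and OsNAC10 2 (40%, against 9.86%), with 0 higher. In OsNAC5 0 of these were called by limma, with 3 lower and 0 higher at an unadjusted p under 0.05, again without a share of all loci. Higher calls made up 1.78% to 5.32% of all loci tested, so 0 higher in either family was near that share.

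Os08g0360300 of this family had 13.2 and 13.5 FPKM in OsNAC5, 8.18 and 6.37 in OsNAC6, 11.8 and 14.4 in OsNAC9, 2.57 and 2.83 in OsNAC10, and 18.4 and 20.3 in NT. OsNAC10 changed by -2.46 ± 0.13 (log2, SE, limma adjusted p = 1.02e-05) and its differences from the other lines were -1.15 to -1.95 (all called). Os12g0547600 had 41.7 and 41.9 FPKM in OsNAC5, 18.5 and 24.2 in OsNAC6, 30.2 and 28.6 in OsNAC9, 17.6 and 16.5 in OsNAC10, and 53.2 and 53.9 in NT. It was called in OsNAC6 (-1.30), OsNAC9 (-0.84) and OsNAC10 (-1.60, limma adjusted p = 4.34e-05), and its change in OsNAC5 was -0.35.

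The IQ-motif loci, in which calmodulin binds a short helix, had calls in both directions. Of 37 tested, OsNAC6 had 4 lower (10.8%, against 7.07% of all loci tested) and 3 higher (8.11%, against 5.32%), OsNAC9 had 3 lower (8.11%, against 4.91%) and 3 higher (8.11%, against 4.43%), and OsNAC10 had 4 lower (10.8%, against 9.86%) and 4 higher (10.8%, against 4.61%). Os06g0611100 had 33.7 and 36.1 FPKM in OsNAC5, 32.3 and 35.3 in OsNAC6, 33.0 and 31.6 in OsNAC9, 42.4 and 45.1 in OsNAC10, and 23.0 and 22.8 in NT, above NT throughout, with a change of 0.90 ± 0.08 in OsNAC10 (SE, limma adjusted p = 0.00012) and of 0.48 to 0.58 in the other lines, under the fold required.

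Os01g0190500 had 7.13 and 8.52 FPKM in OsNAC5, 9.22 and 9.68 in OsNAC6, 9.36 and 11.7 in OsNAC9, 9.34 and 8.65 in OsNAC10, and 5.62 and 5.02 in NT. It was called in OsNAC9 (0.86), OsNAC6 (0.73) and OsNAC10 (0.66), and the OsNAC6 and OsNAC10 calls were lost without NT replicate 2 (limma adjusted p = 0.051 and 0.0613). Os01g0708700 was called in OsNAC6 (1.03) and OsNAC9 (0.63), Os08g0115200 in OsNAC6 (0.72) and OsNAC9 (0.71), and Os03g0161400 in OsNAC10 (0.65), each lost in at least one line when a library was left out. Os01g0570800 went lower, with 14.9 and 14.1 FPKM in OsNAC10 and 35.9 and 37.0 FPKM in NT (-1.27, limma adjusted p = 2.1e-05). The abundant IQ loci Os06g0155300, Os06g0104400 and Os01g0833800 were called in no line. The study lists Os01g0833800 as a target detected by RNA-Seq in OsNAC10, at an unadjusted p. Its sum here, over 2 transcripts of which 1 is described with an IQ domain, was 58.4 and 54.5 FPKM in OsNAC10. In NT it was 54.8 and 55.0 FPKM, and the reason for the difference from the study was not tested.

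Among the remaining calmodulin-binding loci, Os06g0256300, described as similar to a calmodulin-binding heat-shock protein, had 15.8 to 19.8 FPKM in the OsNAC6 and OsNAC9 libraries and 30.1 and 30.0 FPKM in NT, and was called lower in both lines (-0.68 and -0.88). Os05g0502000, described as similar to a cyclic nucleotide-gated channel, a calcium-permeable channel that calmodulin regulates, had 2.63 and 1.87 FPKM in OsNAC6 and 0.137 and 0.156 FPKM in NT. Its change in OsNAC6 was 1.49 ± 0.12 (log2, SE, limma adjusted p = 7.92e-05), and OsNAC6 differed from each other line (limma, all called). The other lines had 0.175 to 0.752 FPKM.

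To ask where the lines differ from one another, the 4 line means were compared. NT was not in these contrasts, but its libraries stayed in the fit and added to the estimate of the spread. An F test found 52 of the 203 loci different among the lines (25.6%, against 16.2% of all loci tested), and among loci of at least 1 FPKM 42 of 172 (24.4%, against 17.4%). OsNAC10 stood apart from OsNAC5, with 28 sensor loci lower (13.8%, against 5.74% of all loci tested) and 1 higher (0.493%, against 2%). Against OsNAC9 it had 19 lower (9.36%, against 5.47%) and 2 higher (0.985%, against 2.38%). Against OsNAC6 it had 11 lower (5.42%, against 2.82%) and 3 higher (1.48%, against 1.34%). OsNAC6 against OsNAC5 gave 14 lower (6.9%, against 1.75%) and 7 higher (3.45%, against 1.28%). OsNAC9 against OsNAC5 gave 6 lower (2.96%, against 1.28%) and 2 higher (0.985%, against 1.61%). OsNAC9 against OsNAC6 gave 2 lower (0.985%, against 0.772%) and 3 higher (1.48%, against 1.51%), near the shares of all loci. The F test count rested on the OsNAC6 and OsNAC10 libraries: it was 90 without OsNAC6 replicate 2, 33 without OsNAC10 replicate 1 and 30 without OsNAC10 replicate 2.

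The proteins that move calcium and those that store it were read beside the sensors. Of 64 loci for channels, pumps, exchangers, annexins and lumenal chaperones 60 were tested, and OsNAC6 had 6 lower (10%, against 7.07% of all loci tested), OsNAC9 2 (3.33%, against 4.91%) and OsNAC10 6 (10%, against 9.86%), with 1 higher, an annexin in OsNAC6. These shares were near those of all loci. Glutamate receptor channels, which admit calcium, held 3 of the lower calls in OsNAC6 and 3 in OsNAC10 among 17 tested. Lower calls made up 7.07% and 9.86% of all loci tested in OsNAC6 and OsNAC10, and no subgroup was tested as a set. The 12 calcium ATPases, which pump the ion out of the cytosol, held 1 in each of these lines. Over the 60 loci OsNAC5 had a median log2 change of -0.04, OsNAC6 of -0.11, OsNAC9 of -0.12 and OsNAC10 of -0.09.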

How the data were processed

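RNA-Seq libraries of rice roots were used, 2 for each of 5 groups, with groups and replicate numbers from the sample titles. The authors deposited FPKM values per annotated transcript; their methods describe trimming of adaptors and removal of contaminating, duplicate and low-quality reads before mapping with TopHat to IRGSP 1.0 with the RAP-DB annotation. Cufflinks is named in a legend for the calling of changed genes, and the program that gave the FPKM values, with its version, is not given in the sources used here. FPKM hold no read counts. Read numbers per library are listed by the study but were not used here, so no counting interval is given. Of the 41635 transcripts, 246 matched the description rule. All transcripts of a locus were summed, which for 22 loci adds a transcript with another description. All sample columns were used (0 unused).

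Values were transformed as log2(FPKM + 1), loci above 0 in all 10 libraries were kept, and the 5 groups were fitted together with limma 3.58.1 in R 4.3.3 (eBayes with an intensity trend, two-sided, Benjamini-Hochberg over 29915 loci). The replicates are described as biological, without the plants or lines behind them, so p-values measure the spread between these samples. The members, the lists and the tests were chosen with earlier results of these data known. Named loci were, among loci of at least 1 FPKM, the 3 strongest calls per line and direction, those called in all 4 lines, the 2 most abundant per class, the 3 smallest F test p-values and loci on the study's list of bound genes (28 in all). Every other named locus was chosen after its values were seen. Class words were adjusted once after the descriptions were read. No sequence or coordinate is given, since no genome was used; chromosomes are those in the RAP identifiers. The procedure was tested on simulated data. Alternatives covered the pseudocount, filter, scaling, variance prior, threshold, sum per locus, samples in the fit, replicate block and leaving out each library.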

Additional observations from a re-analysis of the deposited data

Results flagged for a closer look

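The F test among the 4 line means marked 10 of the loci named by rule. The NT libraries were in the fit and added to its estimate of the spread. The clearest was EF-hand locus Os09g0482800 (limma adjusted p = 4.66e-06), with 18.7 and 21.1 FPKM in OsNAC5 and 0.874 and 0.783 FPKM in OsNAC10. It was followed by Os11g0600500 (adjusted p = 0.00012) and the CCD1-like Os01g0783700 (adjusted p = 0.000127), both lowest in OsNAC10. Os01g0212400, an EF-hand locus called in no line against NT, had 170 and 151 FPKM in OsNAC10, 104 and 105 FPKM in OsNAC9 and 127 and 123 FPKM in NT, and differed among the lines (adjusted p = 0.00446).

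The kinase Os04g0584600 (adjusted p = 0.00461) was higher in OsNAC5 than in the other lines, though by less than 1.5 fold. Among loci above NT, the IQ-motif Os06g0611100 (adjusted p = 0.0216) and the calmodulin Os08g0117400 (adjusted p = 0.0428) were highest in OsNAC10, and Os07g0619200 (adjusted p = 0.0262) and the IQ-motif Os01g0708700 (adjusted p = 0.031) were highest in OsNAC6. Os09g0483500 (adjusted p = 0.0278) was lowest in OsNAC5.

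Os04g0205000, described as similar to calmodulin and left out of the main fit because of its zeros, had 0 and 0.162 FPKM in OsNAC5, 2.30 and 1.84 in OsNAC6, 3.49 and 4.71 in OsNAC10, and was listed at 0 in both OsNAC9 and both NT libraries. In the fit without the filter its log2 change was 1.61 in OsNAC6 and 2.34 in OsNAC10.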

How the results depend on the processing

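No change named by rule reversed under any alternative run. Of the 52 called changes, 36 held under every alternative and 16 were lost under at least one, most often when an NT library was left out. The EF-hand losses on chromosome 9 and the shared losses at Os02g0305950 and Os08g0534300 held throughout. Os02g0158100, called higher in OsNAC6 and OsNAC10 (1.01 and 1.10), rests on a transcript without an EF-hand description (0.30 in each line without it). A pseudocount of 0.1 gave 3 higher and 11 lower loci in OsNAC5 and 12 higher in OsNAC9. Quantile normalization, the line and NT alone, an unadjusted p and leaving out both OsNAC6 libraries (the last chosen after seeing the data) each gave 2 higher in OsNAC5. Median centring gave 15 higher loci and 3 lower kinases in OsNAC10. A fold of 2 gave 0, 5, 0 and 1 higher loci in OsNAC5, OsNAC6, OsNAC9 and OsNAC10, 13, 7 and 27 lower in OsNAC6, OsNAC9 and OsNAC10, and 0, 0 and 2 lower kinases in those 3 lines. Leaving out 1 library gave 1 to 3, 7 to 17, 3 to 8 and 3 to 10 higher loci and 6 to 7, 33 to 47, 23 to 28 and 38 to 43 lower loci in the 4 lines, 4 to 7, 3 to 4 and 5 to 6 lower kinases in OsNAC6, OsNAC9 and OsNAC10, and 30 to 90 loci in the F test. The lowest higher counts came without NT replicate 2 in OsNAC6 (7) and OsNAC10 (3), and without OsNAC9 replicate 2 or either NT library in OsNAC9 (3); OsNAC10 had 4 without its replicate 2. The cause was not tested.

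Same-numbered replicates did not vary together in one direction: the correlation of same-numbered deviations was 0.049, -0.175, 0.139 and 0.036 between NT and OsNAC5, OsNAC6, OsNAC9 and OsNAC10, and among the lines it ran from -0.699 (OsNAC6 and OsNAC9) to 0.527 (OsNAC5 and OsNAC9). Each correlation rests on 1 replicate difference per group, and whether samples were paired or shared a batch was not tested. With the replicate block, the higher counts were 1, 12, 7 and 8, the lower counts 6, 38, 27 and 43, and the F test count 45. With the OsNAC6 numbers crossed in the block, an alternative chosen after seeing the data, OsNAC5 had 2 higher loci. With 2 libraries a group and no read numbers, small changes of low loci could not be resolved.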
